A study of Mus musculus with 2 samples.

Results

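The 10 genes described here carry or report WNT signalling in the developing limb: the ligands Wnt3, Wnt6, Wnt7a and Wnt5a, the agonist Rspo2, the nuclear factors Lef1 and Tcf7, the feedback inhibitor Axin2, the secreted antagonist Dkk1 and the ventral ectoderm factor En1. They were taken from the 23157 genes of the deposited transcript table by their symbols, whatever their level, and each of the 10 was found, with 29 of the 64053 transcripts. WNT proteins are secreted, lipid-modified ligands. In the canonical branch they bind Frizzled and Lrp5 or Lrp6 receptors, beta-catenin escapes destruction, and TCF/LEF factors activate their targets with it. In the limb bud the ectoderm sends WNT ligands to the mesenchyme under it, Wnt7a marks its dorsal side and En1, which represses Wnt7a, its ventral side, while Wnt5a is made by the distal mesenchyme and orients the outgrowing cells through Ror2.

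Poly(A) RNA was sequenced from distal forelimbs of E12.5 mouse embryos of the C57Bl6CBAF1 strain, as 1 wild-type library and 1 that carried the allele HoxD Inv(TpSB1-Itga6). In this allele, kept homozygous per the methods, a 2.4 Mb segment next to the HoxD cluster is inverted. The design text gives 3 pairs of forelimbs as the source of the RNA, without saying whether for each library, and the comparison asks what the inversion does to gene expression in the tissue that forms the digits. None of the 10 genes lies on chromosome 2, which carries HoxD.

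Summed over the deposited transcripts, 9280660 reads were recovered for the wild-type library and 9466154 for the inversion library. With 1 library for each genotype there is no replicate check and no test of the genotype for any difference given here. Log2 ratios are of inversion over wild type, on the log2 scale of reads divided by the library's size factor (scaled reads) plus a pseudocount of 1. Each 95% interval was derived by the exact Clopper-Pearson method from the fraction of a gene's reads that fell in the inversion library, and covers only the error of counting in these 2 libraries. The female-specific RNA Xist was counted 2607 times in wild type and 13 times in the inversion, so the sex make-up of the material differed and cannot be told apart from the genotype. Muscle markers were also unequal, with 866 and 1796 reads summed over 8 genes (log2 ratio 1.02), and cartilage markers had 16144 and 19064 reads over 8 genes (log2 ratio 0.20). What part these differences between the libraries had in any value below was not tested. Ectoderm markers are given beside the ligands.

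Of the 10 genes, 9 had a log2 ratio below 0 and 1, En1, above 0. Over all 16756 genes with a mean of at least 10 scaled reads, 53.4% were below 0 and 46.6% above. The 10 genes, each of which passed that minimum, had a median log2 ratio of -0.15, against -0.02 for all those genes. Of the 9, Dkk1 lay so close to 0 that its sign changed with scaling by the total and by the median of ratios. None differed by 2-fold, a size that 3.99% of all genes reached in the higher direction and 0.483% in the lower. The interval lay below 0 for Wnt7a, Wnt5a and Rspo2, where 13.0% of all genes had such an interval, and above 0 for En1, where 16.7% did. For the remaining 6 genes a difference was not detectable at this depth. Summed, the 10 genes had 8395 wild-type and 7753 inversion reads (log2 ratio -0.15, 95% interval -0.20 to -0.11), and Wnt5a alone made up the largest part of both sums.

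**Figure D1:**
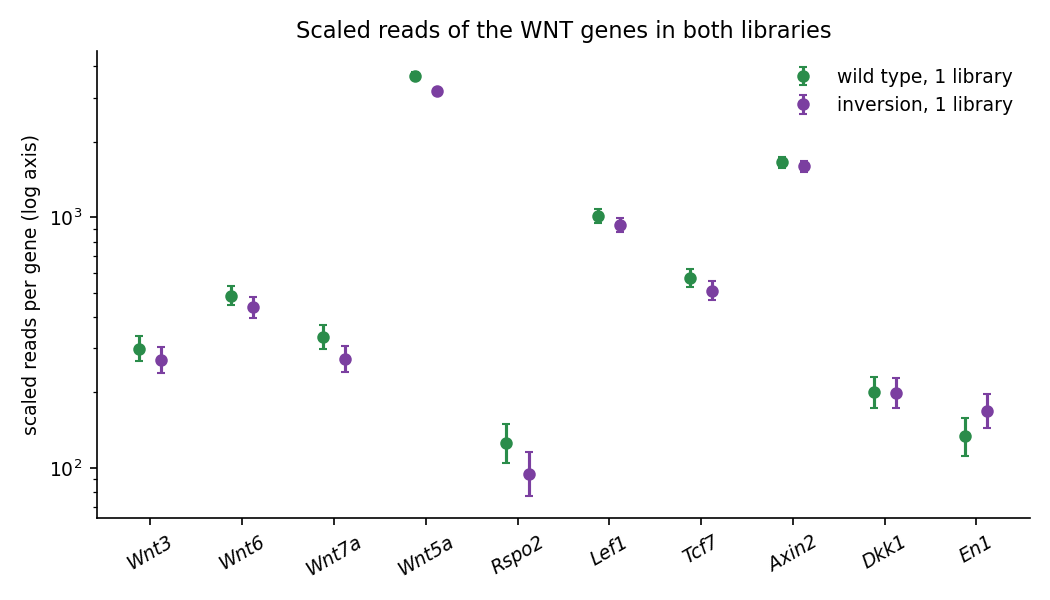
Reads of each of the 10 WNT genes in the wild-type and the inversion library, divided by the library's size factor, on a log axis; error bars are exact 95% Poisson intervals of the reads, which cover counting error only. Wnt5a stands highest in both libraries, and En1 is the gene whose value is higher in the inversion library, 168.9 against 133.7.

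Wnt3 (GRCm38, chromosome 11, 103774150 to 103817957, plus strand) is an ectodermal ligand needed for the apical ectodermal ridge, the signalling rim of the bud. It had 295 wild-type reads and 273 in the inversion, a log2 ratio of -0.15 (95% interval -0.39 to 0.09). Wnt6 (chromosome 1, 74771892 to 74785322, plus strand), made throughout the limb ectoderm, had 481 and 443 reads (log2 ratio -0.15, 95% interval -0.34 to 0.03). Both intervals include 0. Wnt7a (chromosome 6, 91363981 to 91411363, minus strand), the dorsal ectoderm signal that switches on Lmx1b in the mesenchyme below, had 328 wild-type reads and 276 in the inversion. Its log2 ratio was -0.28 (95% interval -0.52 to -0.05), which puts the inversion library at 82.1% of the wild-type level. Together the 3 ectodermal ligands had 1104 and 992 reads, a log2 ratio of -0.19 (95% interval -0.32 to -0.07).

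These values stand beside those of the ectoderm as a whole. All 15 limb ectoderm markers had a log2 ratio below 0, against 53.4% of all genes, which also held under scaling by the total, the upper quartile and the median of ratios. In 10 of them the interval lay below 0 (9 with scaling by the median of ratios), against 13.0% of all genes. Krt5, a keratin of the basal layer, had 1728 wild-type and 1520 inversion reads, and Krt14, its partner, had 942 and 816. Epcam, an epithelial adhesion molecule, had 531 and 426 reads, and Trp63, the master factor of stratified epithelium, had 947 and 900. Summed, the 15 markers had 8078 and 7031 reads, a log2 ratio of -0.24 (95% interval -0.28 to -0.19), and none was at 0. Relative to the sum of these markers, the log2 ratio was 0.09 for Wnt3, 0.08 for Wnt6 and -0.05 for Wnt7a, given as values without an interval. In bulk tissue, fewer ectoderm cells and less RNA per cell cannot be told apart. For the ridge genes a difference was not detectable at this depth, with 470 and 464 reads over 5 markers (log2 ratio -0.05, 95% interval -0.24 to 0.13), Fgf8, the main ridge signal, having 64 and 58. Fgf9 (218 and 213) and Sp8 (185 and 188) gave most of these reads, and Fgf4 (1 and 3) and Sp6 (2 and 2) lay below the mean of 10.

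**Figure D2:**
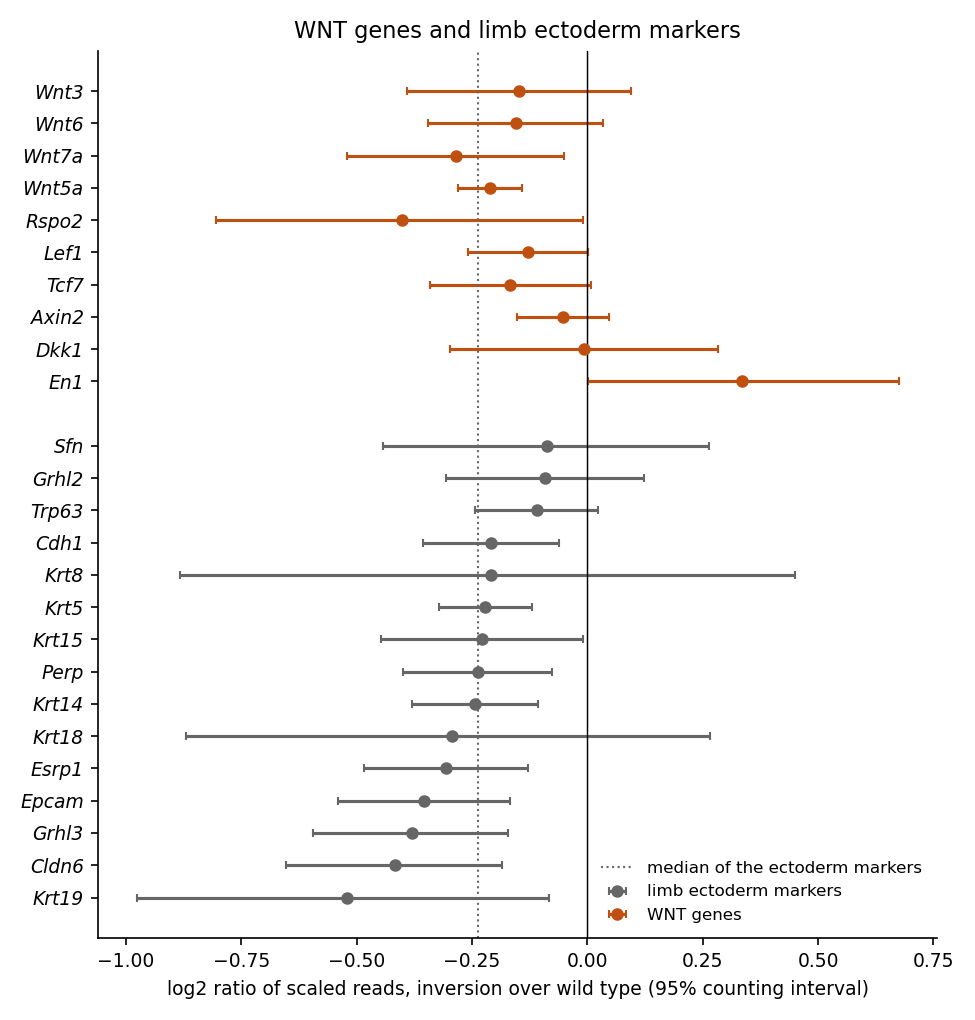
Log2 ratio of inversion over wild type for the 10 WNT genes (orange) and 15 limb ectoderm markers (grey), with 95% counting intervals; the dotted line is the median of the ectoderm markers, -0.24. All 15 markers lie left of 0, and of the WNT genes En1 alone has a ratio above 0, with an interval that begins at 0.0013.

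En1 (chromosome 1, 120602418 to 120607992, plus strand), the homeobox factor of ventral ectoderm, was the only one of the 10 genes with an interval above 0. None of the 15 ectoderm markers had such an interval, and 16.7% of all genes did. En1 had 132 reads in wild type (95% Poisson interval 110 to 157) and 171 in the inversion (146 to 199), a log2 ratio of 0.34 (95% interval 0.0013 to 0.68). The lower end of this interval is next to 0, and with scaling by the upper quartile the interval includes 0 (-0.0081 to 0.67). Relative to the summed ectoderm markers the log2 ratio was 0.57. Lmx1b, the dorsal mesenchyme factor downstream of Wnt7a, had 1800 and 1858 reads, a log2 ratio of 0.01 (95% interval -0.08 to 0.10). Neither Wnt7a nor En1 was called by the exact binomial test over all genes.

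Upstream sequences of Wnt7a and En1 are shown because these genes mark opposite faces of the ectoderm and their values went opposite ways. They are RefSeq promoter sequences on GRCm38.p6, cut to the stretch before the transcription start. The motif searched was CTTTG, the core of the TCF/LEF recognition sequence, on both strands, so that the reverse complement CAAAG counts too, and matches are in capitals.
Wnt7a, chr6:91411364-91411603, minus strand: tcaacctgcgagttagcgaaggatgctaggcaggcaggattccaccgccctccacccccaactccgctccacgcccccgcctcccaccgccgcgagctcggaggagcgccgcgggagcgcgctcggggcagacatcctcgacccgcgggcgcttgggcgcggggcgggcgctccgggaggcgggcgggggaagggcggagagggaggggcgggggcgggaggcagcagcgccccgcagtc
En1, chr1:120602237-120602417, plus strand: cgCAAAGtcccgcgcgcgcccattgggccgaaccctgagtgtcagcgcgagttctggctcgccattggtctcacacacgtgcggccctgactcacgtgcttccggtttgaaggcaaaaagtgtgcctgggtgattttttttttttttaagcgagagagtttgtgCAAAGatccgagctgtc
The Wnt7a stretch is 77.1% G and C over 240 bases and holds no match. The En1 stretch is 55.2% G and C over 181 bases and holds 2. The core is short, and 53.93% of 32851 RefSeq promoter windows of 300 bases hold it, so a match describes the sequence and is not a site. Both stretches are shorter than these windows and differ in length and in G and C content. Their counts are therefore not like for like with each other or with that share. The full En1 window holds 3 matches and that of Wnt7a 0.

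Wnt5a (chromosome 14, 28504750 to 28527448, plus strand) was the most abundant of the 10 genes. It had 3633 wild-type and 3217 inversion reads, a log2 ratio of -0.21 (95% interval -0.28 to -0.14), or 86.4% of the wild-type level. It was the only one of the 10 genes called lower by an exact two-sided binomial test of reads over all genes at a Benjamini-Hochberg adjusted p below 0.05, a test that compares these libraries and called 7.72% of all genes lower. An antisense gene, Gm2670, overlaps Wnt5a and had 191 and 203 reads, and whether reads were assigned by strand is not stated. Of the 11 limb mesenchyme markers, 7 were lower and 4 higher, against 53.4% and 46.6% of all genes, and none was at 0. Their median log2 ratio was -0.02 (0.0025 with scaling by the median of ratios). Prrx1, a pan-mesenchymal factor, had 3857 and 3913 reads, and the distal genes Msx1, Msx2 and Fgf10 had 1419 and 1248, 835 and 821, and 701 and 599. The intervals of Msx1 and Fgf10 lay below 0 and that of Msx2 included it. Over all 11 markers, 2 intervals lay below 0 and 3 above, those of Pdgfra, Col1a1 and Col1a2, against 13.0% and 16.7% of all genes. The sum of these markers was higher in the inversion (27501 and 31963 reads), with the collagen genes Col1a1 (3313 and 5520 reads) and Col1a2 (9789 and 11812) making up most of the difference. Relative to that sum, which the collagen genes raise, the log2 ratio of Wnt5a was -0.39, a value that reflects these collagen genes as well as Wnt5a. Ror2, its receptor, had 1243 and 1168 reads (log2 ratio -0.13, 95% interval -0.24 to -0.0095).

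Rspo2 (chromosome 15, 43020794 to 43170826, minus strand) encodes an R-spondin, which strengthens WNT signalling by keeping its receptors on the cell surface and is made in the ridge. It had the fewest reads of the 10 genes, 124 and 96, and the lowest log2 ratio, -0.40. The 95% interval of -0.81 to -0.0092 ends just below 0, and with scaling by the median of ratios its upper end was 0.0086. The other R-spondins went different ways. Rspo3 had 281 and 375 reads (log2 ratio 0.38, 95% interval 0.15 to 0.61), Rspo1 had 47 and 33 (-0.53, interval -1.23 to 0.13) and Rspo4 had 43 and 45 (0.03).

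Lef1 (chromosome 3, 131110471 to 131224356, plus strand) and Tcf7 (chromosome 11, 52252371 to 52283014, minus strand) encode the DNA-binding partners of beta-catenin that act together in the limb bud. Lef1 had 1002 wild-type and 940 inversion reads, a log2 ratio of -0.13 (95% interval -0.26 to 0.0016). Tcf7 had 565 and 516 reads, a log2 ratio of -0.17 (95% interval -0.34 to 0.0078). Both intervals just include 0, and with scaling by the upper quartile both lay below 0. Ctnnb1, which encodes beta-catenin, had 7394 and 7062 reads (log2 ratio -0.10, 95% interval -0.15 to -0.06). Tcf7l1, mostly a repressor, had 1470 and 1343 reads (log2 ratio -0.17, 95% interval -0.27 to -0.06), and Tcf7l2 had 1190 and 1191 (-0.03).

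Axin2 (chromosome 11, 108920349 to 108950783, plus strand), a scaffold of the beta-catenin destruction complex, is a target of canonical signalling in most tissues and serves as its readout. It had 1637 wild-type and 1619 inversion reads, a log2 ratio of -0.05 (95% interval -0.15 to 0.05). With the reads of Axin2 this interval is among the narrowest of the 10 genes. Dkk1 (chromosome 19, 30545863 to 30549665, minus strand), the secreted antagonist that blocks Lrp5 and Lrp6, had 198 and 202 reads. Its log2 ratio of -0.0072 (95% interval -0.30 to 0.28) became 0.0003 with scaling by the total and 0.01 with the median of ratios, so it has no direction. For the readout and the antagonist a difference was not detectable at this depth.

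Among the 8 of the 10 genes with RefSeq promoter windows, the core CTTTG was found in those of Wnt3, Lef1, Dkk1 and En1 and in none of Wnt6, Wnt7a, Tcf7 and Axin2. Over all 32851 windows 53.93% hold this core, so the split describes the sequences only. Lef1 has 4 windows and thus more room for a match. The Dkk1 window holds 4 matches, and 30 bases of it are shown because they hold 2 of the longer forms searched, CTTTGAA and CTTTGTT, in capitals. They lie in the untranslated part of the first exon in GENCODE M21.
Dkk1, chr19:30549585-30549614, minus strand: gCTTTGAAatcccatcccggCTTTGTTgtc
CTTTGAA was found in 5.135% of all windows and CTTTGTT, which Wnt3 also holds, in 5.851%. A further form, CTTTGAT, is in 3.729% of all windows and in none of these 8 genes.

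Levels can be compared between genes only per length, which was done with the transcript of each gene that had the most reads, in scaled reads per kilobase. That transcript held 40.5% of the wild-type reads of Axin2, 48.1% of Tcf7, 60.5% of Wnt5a and 87.1% of Lef1, but 100% of Wnt6. Reads given to other transcripts are left out, so the order is one of single transcripts and not of whole genes. In wild type Wnt5a stood highest at 317, followed by Lef1 at 263, Wnt6 at 235, Axin2 at 158, Tcf7 at 111, Wnt7a at 101, Wnt3 at 97.1, Dkk1 at 82.6, En1 at 50.9 and Rspo2 at 37.6. Among the 3 ectodermal ligands compared, Wnt6 stood above Wnt3 and Wnt7a per length. Counting intervals overlap between the neighbours Lef1 and Wnt6, among Tcf7, Wnt7a and Wnt3, between Wnt3 and Dkk1 and between En1 and Rspo2. In the inversion library the order was the same save that Wnt7a (83.1) and Wnt3 (87.6) changed places, within their intervals. There the intervals of Wnt5a and Lef1 and of Dkk1 and En1 overlapped, which they did not in wild type, and those of Lef1 and Wnt6 did not. En1 there stood at 64.4 and Rspo2 at 28.4, and their intervals (55.1 to 74.8 and 23.0 to 34.7) no longer overlapped.

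Single transcripts mostly followed their gene. Of the 29, 27 had a mean of at least 10 scaled reads, and the interval excluded 0 in 6, of which 5 were lower and En1-201 was higher, where 9.21% of all transcripts were lower and 14.0% higher by their intervals. The main coding transcripts of Wnt5a gave like values, with 2197 and 1925 reads for Wnt5a-201 (log2 ratio -0.23) and 943 and 836 for Wnt5a-202 (-0.21). Axin2-201 and Axin2-202 had log2 ratios of -0.07 and -0.14, and the noncoding Axin2-203 one of 0.17 from 257 and 296 reads, each with an interval that includes 0. Tcf7-201 had 272 and 237 reads (-0.23), and the intervals of all 4 Tcf7 transcripts include 0.

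Lef1 was the only gene here whose interval included 0 while that of a single transcript, Lef1-203, did not. Its main transcript, Lef1-204, had 873 wild-type and 846 inversion reads (log2 ratio -0.08, 95% interval -0.22 to 0.06). Lef1-203, also coding, had 92 and 56 reads (log2 ratio -0.74, 95% interval -1.26 to -0.26), and its share of Lef1 reads was 9.18% in wild type (95% Clopper-Pearson interval 7.47 to 11.1) and 5.96% in the inversion (4.53 to 7.67). The intervals of the shares overlap. Lef1-203 holds an internal coding exon of 84 bases that Lef1-204 lacks, shown here from GENCODE M21 on GRCm38 because it separates them.
Lef1-203 exon, chr3:131191023-131191106, plus strand: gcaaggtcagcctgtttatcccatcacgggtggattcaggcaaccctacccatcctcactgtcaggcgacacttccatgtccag
The length of this exon is a multiple of 3, so the reading frame runs through it. The transcripts differ at other exons too, and how reads shared between transcripts were assigned is not given, so the Lef1-203 count is uncertain.

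**Figure D3:**
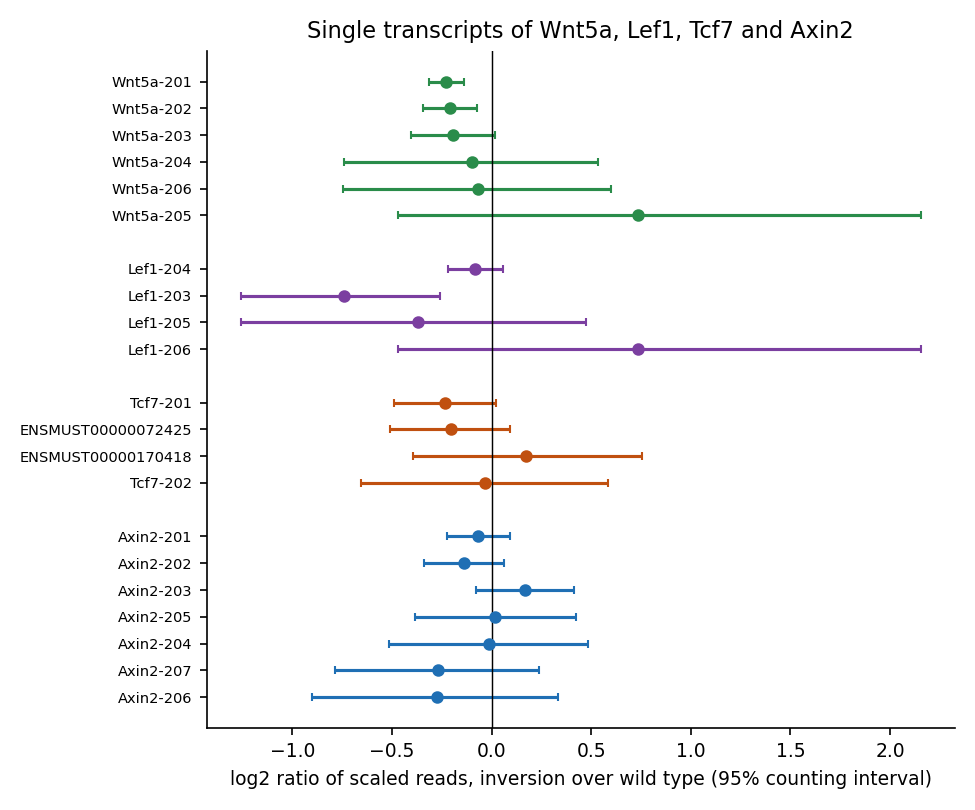
Log2 ratio of inversion over wild type for single transcripts of Wnt5a, Lef1, Tcf7 and Axin2, 1 point a transcript in the order of their mean reads within each gene, with 95% counting intervals. Lef1-203 lies below 0 at -0.74, whereas the interval of Lef1-204, the main transcript, includes 0.

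The wider pathway was read from lists of genes by role. Of 19 WNT ligands, 16 had a mean of at least 10, with a median log2 ratio of -0.15. Of these 16, 11 were lower and 5 higher, against 53.4% and 46.6% of all genes. The interval lay below 0 in 6 and above 0 in 2, against 13.0% and 16.7% of all genes. The lowest was Wnt10a, of the ectoderm, with 65 and 43 reads (log2 ratio -0.62, 95% interval -1.22 to -0.05), followed by Wnt9b with 192 and 139 (-0.50). Wnt7b, with 832 and 680 reads (-0.33), and Wnt5b, with 519 and 447 (-0.25), were the other ligands with an interval below 0 beside Wnt5a and Wnt7a. The intervals above 0 were those of Wnt16 (93 and 167 reads, log2 ratio 0.80, 95% interval 0.43 to 1.19) and Wnt11, a ligand of the noncanonical branch (449 and 642 reads, 0.48). Wnt3a had 96 and 75 reads (-0.39, interval -0.85 to 0.06) and Wnt4, of the joint regions, had 615 and 593 (-0.09). For secretion, Porcn, which adds the lipid to WNT proteins, had 149 and 207 reads (log2 ratio 0.44), and Wls, which carries them to the surface, had 2314 and 2213 (-0.10). Counting protein-coding transcripts alone, Porcn had 82 and 99 reads (0.23).

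Among 15 receptors the median log2 ratio was -0.04, with 3 intervals below 0 and 4 above, against 13.0% and 16.7% of all genes. Fzd4 was lowest (914 and 640 reads, log2 ratio -0.55, 95% interval -0.70 to -0.40) and Fzd5 highest (174 and 297 reads, 0.73, interval 0.46 to 1.01), and the co-receptor Lrp6 had 2749 and 2684 reads (-0.07). R-spondins and their receptors, 9 genes, had a median of 0.0016 (-0.0078 with scaling by the upper quartile). Lgr5, an R-spondin receptor and itself a WNT target, had the highest ratio (130 and 247 reads, 0.88, interval 0.58 to 1.21), while Lgr4 had 1398 and 1296 reads (-0.15).

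Antagonists, the secreted ones and the Dkk receptors Kremen1 and Kremen2, gave a median of 0.02 over 12 genes, with 6 on either side of 0. Sost, an Lrp5 and Lrp6 blocker, was lowest (93 and 53 reads, log2 ratio -0.84, 95% interval -1.36 to -0.35) and Wif1, which binds WNT proteins, was also lower (991 and 692 reads, -0.55). Frzb, made by cartilage precursors, was highest (270 and 444 reads, 0.68, interval 0.46 to 0.91), beside Notum (98 and 144 reads, 0.51) and Sfrp1 (661 and 760 reads, 0.17). Of the 8 cartilage markers, 4 had an interval above 0, from Matn1 (100 and 331 reads) and Acan (440 and 828) to Col2a1 and Col9a1, where 16.7% of all genes did. In 2 it lay below 0, Hapln1 (768 and 648) and Sox6 (1821 and 1581), where 13.0% of all genes did. Dkk2 (654 and 662 reads) and Dkk3 (574 and 568) had intervals that include 0, as Dkk1 did.

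The intracellular lists had medians near 0. The destruction complex and Dishevelled genes had a median of -0.03 over 12, from Gsk3b (2451 and 2295 reads, log2 ratio -0.13) to Dvl1 (442 and 737 reads, 0.70). TCF/LEF factors and nuclear partners had a median of -0.0030 over 12 (0.0148 with scaling by the median of ratios), and hold the only gene of these lists that differed by 2-fold, the co-repressor Tle2 (185 and 545 reads, log2 ratio 1.52, 95% interval 1.28 to 1.77). Counting protein-coding transcripts alone, Tle2 had 58 and 87 reads (0.54) and Dvl1 118 and 171 (0.50). The 14 feedback targets had a median of -0.0028 (0.0149 with scaling by the median of ratios), with 7 lower and 7 higher, and Tcf7 was lowest and Lgr5 highest. Planar cell polarity genes had a median of -0.03 over 9, with Prickle1 lowest (1447 and 1082 reads, -0.46) and Celsr2 highest (523 and 670 reads, 0.32).

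**Figure D4:**
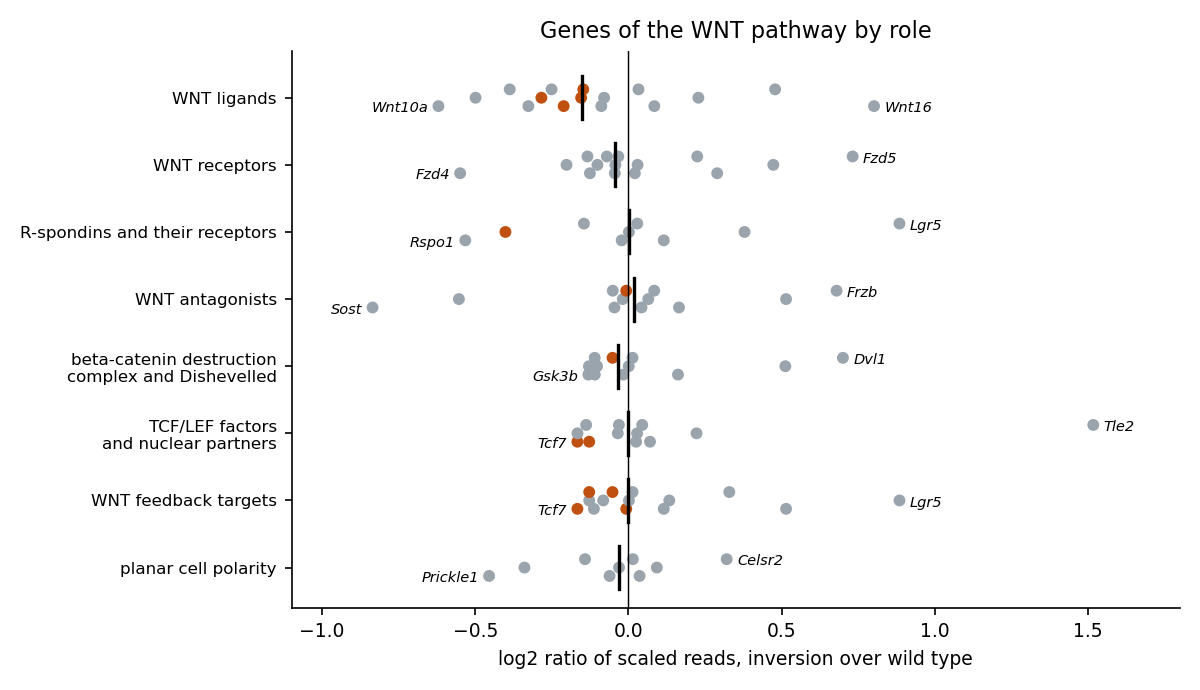
Log2 ratio of inversion over wild type for genes of the WNT pathway with a mean of at least 10 scaled reads, 1 point a gene, by role; orange points are those of the 10 genes that a list holds, and the bar is the median of each list. The ligands have a median of -0.15 and the feedback targets one of -0.0028, and Tle2 stands far to the right.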

How the data were processed

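The authors prepared stranded poly(A) libraries, mapped the reads to NCBIM37 (mm9), with Bowtie2 named in the submitters' processing notes, and deposited 1 table of both libraries. Its values are a signal per transcript: reads divided by the library's size factor, as deposited by the authors, with 0.5 for no reads, read as 0. The methods name RPKM, but the values are whole multiples of 1 step per library, and whole reads were recovered from 100% of them (tolerance 0.02 read). The table's fold change, log2 and p-value columns, the authors' own comparison, were not used. No per-sample column was left unmapped. How reads fitting several transcripts were treated, and use of strand in counting, are not given in the sources used here. The wild-type column, wtDFL, was matched to the sample titled wtFL. For Tcf7 and Axin2, overlapping antisense genes had at most 15 reads; those at Wnt6 and Lef1 were not analysed here.

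Transcripts were summed to genes by symbol. The members and gene lists were chosen with earlier results of these data known. Genes named are the 10 members, listed pathway genes and the highest and lowest of each pathway list, plus any 2-fold different; Wnt9b, Wnt7b, Wnt5b, Wif1, Notum, Sfrp1 and the marker genes given singly, other than Fgf8, were chosen after their values were seen. Positions are of GENCODE M21 (GRCm38), matched by identifier for 88.1% of transcripts, with no coordinate converted. Alternatives were scaling by the total, the upper quartile or the median of ratios, pseudocounts of 5 and 0.1, the transcript with the highest mean, protein-coding transcripts, other filters and thresholds, ratios to marker sums, and an exact binomial test with Benjamini-Hochberg adjustment. Exact binomial calls covered 12.1% (higher) and 7.72% (lower) of 16756 genes. The steps were tested on simulated data. Software was scipy 1.17.1, pandas 2.3.3 and numpy 2.4.6 under Python 3.11.15, and figures were drawn with matplotlib 3.10.9.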

Additional observations from a re-analysis of the deposited data

How the results depend on the processing

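No paired analysis was possible because each genotype has a single library. Of 85 values of the 10 genes under an alternative, 82 stayed within the counting interval of the gene and 3 moved beyond it: Wnt6 became 0.0818 and Wnt7a -0.0479 relative to the summed ectoderm markers, and Wnt5a became -0.39 relative to the summed mesenchyme markers. Col1a1 and Col1a2 made up most of the rise in that mesenchyme sum. Part of the 82 was fixed in advance. The exact binomial test leaves the log2 ratio of each of the 10 genes as it is. For Wnt3, Wnt6, Rspo2, Dkk1 and En1, with 1 transcript each, both alternatives by transcript repeat the main value. A sign changed in 4 values, Dkk1 with scaling by the total and by the median of ratios, and Wnt3 and Wnt6 relative to the ectoderm markers. The median of the 10 genes ranged from -0.16 to -0.13. None of 180 list medians moved by more than the typical (median) width to 1 side of its genes' counting intervals, and 10 changed sign, in the lists of R-spondins and their receptors, TCF/LEF factors, feedback targets, mesenchyme, macrophages and Schwann cells. Genes at least 2-fold higher or lower numbered 668 and 81, of which 89.2% were higher. They were 1992 and 1089 with no filter (64.7% higher), 139 and 12 at a mean of at least 100, 1577 and 341 at a 1.5-fold threshold, and 113 and 13 at 4-fold. Over protein-coding transcripts 412 were higher (78.9% of those past the threshold). The cause of these differences in count was not tested. Depth limits Rspo2, Dkk1 and En1 most, at 202 reads or fewer per library. With 1 library per genotype, no spread between embryos could be measured.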

Other observations

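Other cell types of the distal forelimb gave values that stand beside the WNT genes. The 5 red cell markers had 23990 and 20917 reads in sum (log2 ratio -0.23, 95% interval -0.26 to -0.21), and in 3 of them the interval lay below 0, against 13.0% of all genes. The 5 endothelial markers had 3898 and 3785 reads in sum (-0.08), and 1 of their intervals lay below 0, against the same 13.0%. Macrophage markers had 788 and 769 reads over the 4 listed. Schwann and neural crest markers had a median log2 ratio of 0.31 over 5 genes, with 1025 and 1111 reads in sum, and this median was -0.0018 when a mean of at least 100 was required. Proximal limb markers, 5 genes, had a median of -0.29. Their sum was 1372 and 1547 reads, and Shox2 alone had 376 and 724 (0.91), while the log2 ratios of Irx3, Irx5, Meis1 and Meis2 were -0.45, -0.29, -0.14 and -0.34.

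Muscle genes gave the highest median of the cell type lists, 0.70 over 7 genes. Myh3, a myosin of embryonic muscle, had 189 wild-type and 715 inversion reads (log2 ratio 1.88, 95% interval 1.65 to 2.12), and Myog, which drives muscle differentiation, had 155 and 268 (0.75). Of the genes of muscle precursors, Pax7 had 7 and 36 reads (2.18, interval 1.14 to 3.74), Pax3 had 26 and 20 (-0.40, interval -1.33 to 0.48) and Myf5 had 25 and 36 (0.47, interval -0.29 to 1.29).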
